A study of Mus musculus with 16 samples.

Results

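Gfap, Vim, Serpina3n, Lcn2, Cd44, Osmr, Timp1, Cp and S1pr3 are 9 genes that reactive astrocytes are known to switch on after injury or inflammation. They were taken by gene symbol, as 9 of the 24060 genes listed for each mouse, and the rule that takes them applies no threshold to their values. All 9 were found, and 7 had a mean of at least 1 RPKM (read number scaled to gene length in kilobases and to 1e+06 reads of the library) over the mice and entered the tests across 12015 genes. Lcn2 and Timp1 were below that level and are described from their reads.

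The RNA came from cortical brain tissue of 16 mice aged 8 to 9 months, on a strain given as C57BL/6; C3, with 4 mice per genotype, 2 females and 2 males in each. The label P301S+ marks mice with a transgene for the P301S variant of tau, which aggregates in neurons. Among them, P301S+ TREM2-/- mice had no intact Trem2 allele (knockouts), P301S+ TREM2+/- mice had 1 (heterozygotes) and P301S+ TREM2+/+ mice had both. Mice labelled TREM2+/+ without P301S served as controls and also had both Trem2 alleles. Which promoter drives the transgene and how Trem2 was inactivated are not stated in the labels. Each library is 1 mouse, and no litter, preparation day or batch is given. The mice are numbered consecutively by genotype, so a batch that followed this order and the genotype cannot be told apart.

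Astrocytes are the star-shaped support cells of the brain, and in response to damage they enlarge, build more intermediate filaments and secrete protease inhibitors, iron-handling proteins and matrix regulators. Cytokines of the interleukin-6 family, among them oncostatin M, drive much of this response through the shared receptor gp130 and the transcription factor Stat3, and activated microglia are a known source of further signals. Trem2 is a lipid-sensing receptor of microglia. Several of the 9 genes are also made by other cells of the cortex: Vim and Cd44 by vascular, meningeal and immune cells, Timp1 by fibroblasts, Cp by the choroid plexus and Lcn2 by neutrophils. In bulk tissue, fewer cells of a type and less RNA per cell cannot be told apart.

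The libraries held 2.55 to 14.47 M reads (M stands for 1e+06). Trem2 itself had 1.44 to 3.75 RPKM in knockouts, 4.50 to 25.2 RPKM in heterozygotes, 14.3 to 34.0 RPKM in P301S+ TREM2+/+ mice and 7.35 to 20.2 RPKM in controls. The summed level of 15 genes of resting astrocytes was 2821 to 3720 RPKM in knockouts, 3040 to 3894 RPKM in heterozygotes, 2986 to 4043 RPKM in P301S+ TREM2+/+ mice and 2927 to 3684 RPKM in controls, so astrocyte RNA was present in every library. Control replicate 3, a female, stood apart: it was the lowest of the 16 libraries for 41.6% of all genes tested and the highest for 24.9%. Its 7 excitatory neuron markers had a median 1.04 above the median of the 16 mice on the log2 scale, and its 8 oligodendrocyte markers a median of -0.89. Where leaving this mouse out changed a difference from controls markedly, both values are given for the members, and for the other lists where stated.

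Stat3 acts by binding a short palindrome in DNA, and AP-1 (the Fos and Jun dimers) and NF-kB are the other factors most often named in reactive astrocytes. Promoter windows running from 250 bases before to 50 bases after the transcription start were available for all 9 genes, 10 windows in all, from RefSeq on GRCm38.p6. The motifs looked for, on both strands, were STAT as TTCNNNGAA, AP-1 as TGANTCA and the 10-letter NF-kB consensus, and no matched letters overlapped. The STAT letters were found in 1 of the 10 windows, that of Gfap, against 8.3% of all 32851 promoter windows of the same length. The AP-1 letters were found in 2 of the 10, those of Osmr and Cp, against 7.81% of all windows, and the NF-kB letters in 0 of the 10, against 0.411%. The stretches with a match are shown because Gfap, Osmr and Cp are compared from mouse to mouse further on, 5′ to 3′ on the strand of the gene, with the matched letters in capitals. They lie at chr11:102897171-102897300 (minus strand), chr15:6874284-6874413 (minus strand) and chr3:19956824-19956953 (plus strand). The stretches of Gfap and Osmr lie inside the gene spans given further on. Those spans are from GENCODE and begin upstream of the RefSeq starts used here. A match describes the letters and is not evidence of binding.
Gfap: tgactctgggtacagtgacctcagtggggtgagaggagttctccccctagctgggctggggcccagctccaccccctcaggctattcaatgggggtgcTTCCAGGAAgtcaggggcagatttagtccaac
Osmr: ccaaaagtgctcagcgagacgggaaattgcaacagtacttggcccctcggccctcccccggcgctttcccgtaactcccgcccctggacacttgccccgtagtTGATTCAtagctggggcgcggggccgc
Cp: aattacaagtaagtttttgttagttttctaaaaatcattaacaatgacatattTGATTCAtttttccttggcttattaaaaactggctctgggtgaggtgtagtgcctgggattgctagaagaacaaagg

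Gfap encodes glial fibrillary acidic protein, the intermediate filament by which astrocytes are usually recognised, and lies on chromosome 11 (102887336 to 102900912, minus strand, GRCm38). It had 4.22, 4.71, 9.54 and 31.3 RPKM in the 4 knockouts, 4.78, 14.9, 55.5 and 30.7 RPKM in the heterozygotes, 22.4, 11.1, 10.8 and 9.96 RPKM in the P301S+ TREM2+/+ mice, and 7.35, 8.60, 32.4 and 4.75 RPKM in the controls. All 4 genotypes overlapped, and each but P301S+ TREM2+/+ held at least 1 mouse above 30 RPKM and 1 below 5 RPKM. The highest mouse, heterozygote replicate 3, was 13.1-fold above the lowest, knockout replicate 1. The means were 12.4 ± 12.8 RPKM in knockouts, 26.5 ± 22.1 RPKM in heterozygotes, 13.6 ± 5.92 RPKM in P301S+ TREM2+/+ mice and 13.3 ± 12.8 RPKM in controls (SD, n = 4 each). Each library held 49 to 1450 reads of Gfap, and the part of read depth in the spread was not tested. Its SD within genotypes was 1.11 on the log2(RPKM + 1) scale, against a median of 0.337 over all genes tested, and 1.21% of those genes were at least as variable. Without control replicate 3 the SD was 1.02 and that share 0.782%.

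Vim encodes vimentin, a filament that joins Gfap in reactive astrocytes and is also present in endothelium, fibroblasts and microglia (chromosome 2, 13573927 to 13582826, plus strand). Its values were 13.0, 16.2, 16.3 and 17.4 RPKM in knockouts, 11.4, 20.5, 57.2 and 40.6 RPKM in heterozygotes, 17.2, 18.0, 34.6 and 19.1 RPKM in P301S+ TREM2+/+ mice, and 15.7, 11.5, 8.13 and 13.2 RPKM in controls. Every P301S+ TREM2+/+ mouse was above every control, while the heterozygotes reached both below and far above the controls. The knockouts lay close together, at 15.7 ± 1.90 RPKM (SD, n = 4), and the heterozygotes far apart, at 32.4 ± 20.5 RPKM (SD, n = 4). P301S+ TREM2+/+ mice averaged 22.2 ± 8.27 RPKM and controls 12.1 ± 3.17 RPKM (SD, n = 4 each). Markers of vessels were highest in the mice highest in Vim. The summed level of 8 endothelial markers was 92.0 RPKM in P301S+ TREM2+/+ replicate 3, and 78.5 and 85.9 RPKM in heterozygote replicates 3 and 4, the 3 highest of the 16. Its ranges were 55.4 to 72.8 RPKM in knockouts, 66.2 to 85.9 RPKM in heterozygotes, 74.0 to 92.0 RPKM in P301S+ TREM2+/+ mice and 53.2 to 75.7 RPKM in controls. For 7 mural cell markers the same 3 mice led, with 49.2 RPKM in P301S+ TREM2+/+ replicate 3, and 43.7 and 49.1 RPKM in heterozygote replicates 3 and 4, against 23.9 to 34.4 RPKM in knockouts, 22.9 to 49.1 RPKM in all heterozygotes, 30.3 to 49.2 RPKM in all P301S+ TREM2+/+ mice and 20.5 to 35.0 RPKM in controls. Of these markers 0 were at 0 throughout a genotype, and the part of vascular RNA in the level of Vim was not tested.

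Serpina3n, a secreted inhibitor of serine proteases and one of the steepest markers of reactive astrocytes, lies on chromosome 12 (104406729 to 104414329, plus strand). It had 2.54, 2.07, 2.78 and 5.05 RPKM in knockouts, 1.28, 6.28, 15.7 and 11.3 RPKM in heterozygotes, 8.42, 6.09, 5.57 and 4.16 RPKM in P301S+ TREM2+/+ mice, and 2.98, 2.09, 1.47 and 3.39 RPKM in controls. The P301S+ TREM2+/+ mice were again all above the controls. The knockouts lay in the range of the controls but for replicate 4, which was above 1 of the 4 P301S+ TREM2+/+ mice. The heterozygotes held both the lowest of the 16 values, in replicate 1, and the 2 highest, in replicates 3 and 4. Serpina3n belongs to a cluster of closely related serpins, so its reads could be shared with near-identical copies and its level is uncertain to that extent.

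Lcn2, a secreted iron-siderophore carrier that astrocytes and neutrophils make in inflammation (chromosome 2, 32384633 to 32388252, minus strand), was close to absent. It had 0 reads in each of the 4 knockouts, 0, 17, 3 and 1 reads in the heterozygotes, 0 reads in each of the 4 P301S+ TREM2+/+ mice, and 15, 2, 0 and 0 reads in the controls. Reads were found in 5 of 16 libraries, and heterozygote replicate 2 (2.06 RPKM) and control replicate 1 (2.37 RPKM) held most of them. Counting error alone allows a group level of up to 0.148 RPKM in knockouts and 0.11 RPKM in P301S+ TREM2+/+ mice (3 reads over the group). Control replicate 1 also had the highest summed level of 7 neutrophil and blood markers, at 13.9 RPKM, with S100a9, a neutrophil calcium-binding protein, at 7.47 RPKM. Heterozygote replicate 2 had 7.43 RPKM, the highest of the heterozygotes, but P301S+ TREM2+/+ replicate 3 had 11.9 RPKM and knockout replicate 4 10.3 RPKM with no Lcn2 read. The summed level spanned 1.09 to 10.3 RPKM in knockouts, 1.25 to 7.43 RPKM in heterozygotes, 1.05 to 11.9 RPKM in P301S+ TREM2+/+ mice and 1.48 to 13.9 RPKM in controls, with 3 of the 7 genes at 0 in every mouse, and the part of these cells in the Lcn2 reads was not tested.

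Timp1 encodes an inhibitor of matrix metalloproteinases and lies on chromosome X (20870166 to 20874735, plus strand), inside the oppositely oriented gene Syn1. The labels do not say whether counting used strand, and reads of the neuronal gene Syn1 and of Timp1 may then not be separated. Timp1 had 1, 1, 4 and 4 reads in knockouts, 3, 1, 8 and 7 reads in heterozygotes, 4, 7, 4 and 4 reads in P301S+ TREM2+/+ mice, and 4, 2, 0 and 1 reads in controls. The mean was 0.453 RPKM in knockouts, 0.646 RPKM in heterozygotes, 0.740 RPKM in P301S+ TREM2+/+ mice and 0.238 RPKM in controls, and the groups overlapped in each pairing. With reads this few, a difference of the size of these means was not resolved. When every gene above 0 in at least 1 library was tested, the adjusted p-values from limma over the 6 comparisons were 0.397 to 1 for Timp1 and 0.595 to 1 for Lcn2.

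Cp encodes ceruloplasmin, a copper-carrying ferroxidase that astrocytes hold at the membrane (chromosome 3, 19957054 to 20009145, plus strand, overlapping Hps3 on the other strand). The values were 1.11, 2.0, 1.35 and 1.14 RPKM in knockouts, 1.01, 1.38, 3.56 and 3.65 RPKM in heterozygotes, 1.86, 1.42, 4.12 and 1.57 RPKM in P301S+ TREM2+/+ mice, and 1.83, 1.51, 1.53 and 1.21 RPKM in controls. Above 3.5 RPKM were 3 mice, both heterozygous males and P301S+ TREM2+/+ replicate 3, and the other 13 lay at or below 2.0 RPKM. P301S+ TREM2+/+ replicate 3 also had the highest summed level of 8 choroid plexus markers, at 2011 RPKM, against 732 RPKM in heterozygote replicate 3 and 228 RPKM in heterozygote replicate 4. The ranges of that sum were 199 to 1145 RPKM in knockouts, 151 to 732 RPKM in heterozygotes, 293 to 2011 RPKM in P301S+ TREM2+/+ mice and 188 to 630 RPKM in controls, with 0 of the 8 markers at 0 throughout a genotype, and its part in the level of Cp was not tested.

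Of the receptors, Cd44, which binds hyaluronan of the extracellular matrix (chromosome 2, 102811141 to 102901665, minus strand), had 1.78, 1.87, 1.64 and 2.36 RPKM in knockouts, 2.58, 2.28, 5.02 and 2.74 RPKM in heterozygotes, 1.78, 1.69, 2.40 and 1.31 RPKM in P301S+ TREM2+/+ mice, and 2.82, 1.87, 0.135 and 2.23 RPKM in controls. Heterozygote replicate 3 was the highest mouse, and control replicate 3, with 4 reads, the lowest by far. The remaining 14 mice lay between 1.31 and 2.82 RPKM, and all genotypes overlapped.

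Osmr, the subunit by which gp130 responds to oncostatin M, lies on chromosome 15 (6813577 to 6874969, minus strand). It had 0.719, 0.648, 1.66 and 2.36 RPKM in knockouts, 0.789, 1.36, 4.03 and 3.29 RPKM in heterozygotes, 1.40, 1.16, 1.06 and 1.31 RPKM in P301S+ TREM2+/+ mice, and 1.12, 0.772, 0.0395 and 1.11 RPKM in controls. Male heterozygotes were the 2 highest of the 16 mice, and control replicate 3, with 1 read, was the lowest. In knockouts, heterozygotes and controls both males were above both females, whereas the P301S+ TREM2+/+ mice lay within 1.06 to 1.40 RPKM.

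S1pr3, a receptor for the lipid sphingosine 1-phosphate (chromosome 13, 51408639 to 51422797, plus strand), had 1.47, 1.05, 1.17 and 1.88 RPKM in knockouts, 1.40, 1.66, 3.44 and 1.86 RPKM in heterozygotes, 1.28, 1.01, 1.10 and 1.37 RPKM in P301S+ TREM2+/+ mice, and 1.41, 1.59, 4.30 and 0.826 RPKM in controls. Here control replicate 3, the lowest mouse for Cd44, Osmr and Vim, was the highest. The heterozygotes were all above the P301S+ TREM2+/+ mice, although the nearest pair, at 1.40 and 1.37 RPKM, was close.

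**Figure D1:**
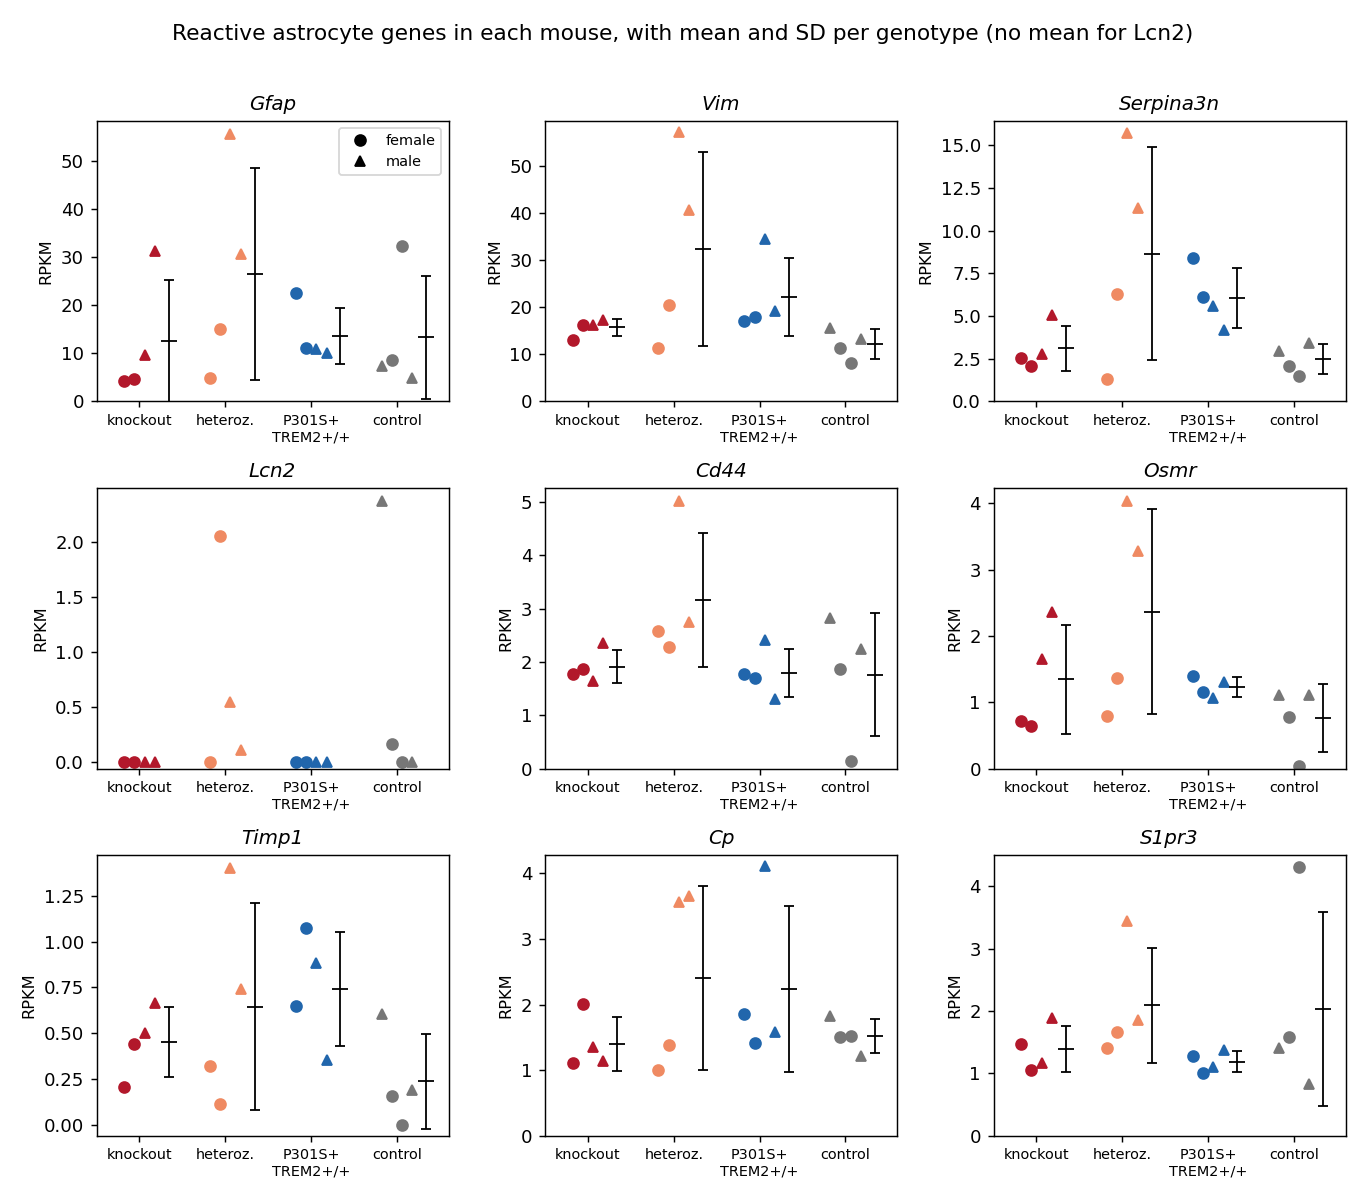
RPKM of each of the 9 genes (vertical axes, linear) in every mouse, by genotype from knockout on the left to control on the right, with circles for females and triangles for males and with the mean and SD of 4 mice beside each group except for Lcn2. The 2 heterozygous males and control replicate 3 stand outside the other mice in several panels, and SD bars that would pass below 0 end at the axis or just under it.

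The effect of the tau transgene was asked by setting P301S+ TREM2+/+ mice against controls. Serpina3n averaged 6.06 ± 1.77 RPKM in P301S+ TREM2+/+ mice and 2.48 ± 0.868 RPKM in controls, and Vim 22.2 ± 8.27 RPKM and 12.1 ± 3.17 RPKM (SD, n = 4 each). The log2 differences were 1.02 for Serpina3n (SE 0.41, limma adjusted p = 0.32) and 0.80 for Vim (SE 0.28, adjusted p = 0.283), so neither passed the threshold of 0.05. Both genes had 4 of 4 P301S+ TREM2+/+ mice above every control, 2 of the 7 genes, and 3.55% of all genes tested did so in that direction, against 1.27% in the opposite one, in which 0 members did. None of the 7 passed the threshold, as did 0% of the 12015 genes, and at an unadjusted p under 0.05 there were 2 of the 7, against 13.8% of all genes. Leaving out single libraries gave 1 to 3 of the 7, against 7.17 to 21.2% of all genes. With limma-voom on whole reads 0 of the 7 passed as well.

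The remaining members were nearer to the controls. Osmr differed by 0.39 (SE 0.24), Cp by 0.30 (SE 0.26), Cd44 by 0.14 (SE 0.28) and S1pr3 by -0.35 (SE 0.28) on the log2 scale. Gfap differed by 0.31 (SE 0.70, adjusted p = 0.858), and this value turned on 1 mouse: without control replicate 3 it was 0.98, without control replicate 4 it was -0.12 and without P301S+ TREM2+/+ replicate 1 it was -0.05. Cd44 went to -0.21, S1pr3 to -0.02 and Osmr to 0.26 when control replicate 3 was left out. Without P301S+ TREM2+/+ replicate 3 the value of Cp was 0.10, and without P301S+ TREM2+/+ replicate 1 that of Osmr was 0.24. Over the 7 members, 6 differences were positive, against 57.1% of all genes, and their median was 0.31, against 0.06 for all genes. That median was 0.49 without P301S+ TREM2+/+ replicate 4 and 0.20 without control replicate 4.

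Partial loss of Trem2, heterozygotes against P301S+ TREM2+/+ mice, gave positive differences for 7 of the 7 members, against 52.5% of all genes, with a median of 0.46, against 0.01 for all genes. Cd44 (0.54, SE 0.28) and Gfap (0.54, SE 0.70) led, followed by Osmr (0.47, SE 0.24), S1pr3 (0.46, SE 0.28), Vim (0.34, SE 0.28), Serpina3n (0.15, SE 0.41) and Cp (0.04, SE 0.26). None of the 7 passed limma's threshold, as did 0% of all genes, the adjusted p being 1 for each, and 0 of the 7 had an unadjusted p under 0.05, against 2.7% of all genes. S1pr3 was the 1 member whose groups did not overlap, and 1.4% of all genes did not overlap in that direction, with 1.46% in the opposite one. Single mice moved these values in opposite directions: the median was 0.10 without heterozygote replicate 3 and 0.64 without heterozygote replicate 1. Gfap was at 0.09 and 1.11, Vim at 0.10 and 0.65, and Serpina3n at -0.15 and 0.67, without the same mice. S1pr3 was at 0.25 without heterozygote replicate 3. Without heterozygote replicate 1, 3 of the 7 had an unadjusted p under 0.05, against 2.03% of all genes. No other single library left out gave as many.

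Complete loss, knockouts against P301S+ TREM2+/+ mice, gave -0.80 for Serpina3n (SE 0.41, adjusted p = 0.54), which averaged 3.11 ± 1.33 RPKM in knockouts and 6.06 ± 1.77 RPKM in P301S+ TREM2+/+ mice (SD, n = 4 each). Gfap (-0.46, SE 0.70), Vim (-0.42, SE 0.28) and Cp (-0.38, SE 0.26) were below 0 too, while S1pr3 (0.12), Cd44 (0.07) and Osmr (0.01) were close to it. The median was -0.38, against -0.02 for all genes, and 3 of the 7 were positive, against 46.8% of all genes. None of the 7 passed limma's threshold, which 0.00832% of all genes did, namely Trem2, and 0 had an unadjusted p under 0.05, against 9.9% of all genes. Every member overlapped between these genotypes, while 2.86% of all genes lay wholly higher and 4.76% wholly lower in knockouts. The members' median was -0.10 without P301S+ TREM2+/+ replicate 1. Without the same mouse Gfap was at -0.10 and Serpina3n at -0.52, while without knockout replicate 4 Gfap was at -0.99. Cp was at -0.18 without P301S+ TREM2+/+ replicate 3.

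Set against each other, knockouts had lower values than heterozygotes for all 7 members, with a median of -0.48, against -0.03 for all genes, of which 44.5% were positive. Gfap differed by -1.01 (SE 0.70), Serpina3n by -0.94 (SE 0.41), Vim by -0.77 (SE 0.28), Cd44 by -0.48 (SE 0.28), Osmr by -0.46 (SE 0.24), Cp by -0.42 (SE 0.26) and S1pr3 by -0.34 (SE 0.28). In RPKM this was 12.4 ± 12.8 in knockouts and 26.5 ± 22.1 in heterozygotes for Gfap, and 3.11 ± 1.33 in knockouts and 8.64 ± 6.23 in heterozygotes for Serpina3n (SD, n = 4 each). Their adjusted p from limma was 1 throughout, with 0% of all genes past the threshold, and Serpina3n and Vim had an unadjusted p under 0.05, 2 of the 7, against 3.42% of all genes. That count was 0 without heterozygote replicate 3, against 2.73% of all genes, and 0 without knockout replicate 3, against 2.35%. It was 5 without heterozygote replicate 1, against 3.74%. Gfap was at -0.55 and S1pr3 at -0.13 without heterozygote replicate 3, whereas without heterozygote replicate 1 Gfap was at -1.57 and Serpina3n at -1.47. No member separated the genotypes, against 2.96% of all genes wholly higher and 2.41% wholly lower in knockouts: heterozygote replicate 1 lay below or within the range of the knockouts for each member except Cd44. The comparison shares its heterozygotes with the previous one on partial loss and its knockouts with that on complete loss, so the 3 sets of values are not independent.

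Heterozygotes were farther from the controls than the other transgenic genotypes for each member except S1pr3. Serpina3n differed by 1.17 (SE 0.41), Vim by 1.15 (SE 0.28), Osmr by 0.87 (SE 0.24), Gfap by 0.86 (SE 0.70), Cd44 by 0.68 (SE 0.28), Cp by 0.34 (SE 0.26) and S1pr3 by 0.11 (SE 0.28), with a median of 0.86, against 0.08 for all genes. All 7 were positive, against 59.9% of all genes. None of the 7 passed limma's threshold, as did 0% of all genes, with adjusted p-values of 0.482 to 0.864, and 4 of the 7 had an unadjusted p under 0.05 (Vim, Osmr, Serpina3n and Cd44), against 9.6% of all genes. When limma weighted the libraries by their agreement with the fit, control replicate 3 received a weight of 0.045, against 0.599 to 4.57 for the others, and Vim alone of the members passed (1.05, adjusted p = 0.0448), as did 1.09% of all genes. The 4 heterozygotes nonetheless overlapped the controls for every member, with 11.4 RPKM of Vim and 1.28 RPKM of Serpina3n in heterozygote replicate 1, while 2.73% of all genes lay wholly higher and 1.66% wholly lower in heterozygotes. Without heterozygote replicate 3 the median was 0.54, Gfap was at 0.40, and 2 of the 7 had an unadjusted p under 0.05, against 8.94% of all genes. Without control replicate 3 the median was 0.73, Cd44 was at 0.33 (SE 0.19), Gfap at 1.52 (SE 0.62) and S1pr3 at 0.44 (SE 0.21). An unadjusted p under 0.05 was then found for Vim, Osmr, Serpina3n and Gfap, 4 of the 7, against 8.72% of all genes, and 0 passed the threshold. Cp was at 0.20 without heterozygote replicate 4.

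Knockouts differed less from controls. Osmr was at 0.40 (SE 0.24), Vim at 0.38 (SE 0.28), Serpina3n at 0.23 (SE 0.41), Cd44 at 0.20 (SE 0.28), Cp at -0.08 (SE 0.26), Gfap at -0.15 (SE 0.70) and S1pr3 at -0.23 (SE 0.28). None of the 7 passed limma's threshold, as did 0% of all genes, and 0 had an unadjusted p under 0.05, against 9.71% of all genes. The median was 0.20, against 0.08 for all genes, and 4 of the 7 were positive, against 58.1%. It was 0.12 without knockout replicate 4 and 0.32 without knockout replicate 3. All members overlapped, against 2.25% of all genes wholly higher and 1.54% wholly lower in knockouts. Without control replicate 3, Gfap stood at 0.52, Cd44 at -0.15 and S1pr3 at 0.10, each with the opposite sign, and Osmr at 0.27 and Cp at -0.01. Without knockout replicate 4 Serpina3n was at 0.12, and without knockout replicate 2 Vim was at 0.23.

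**Figure D2:**
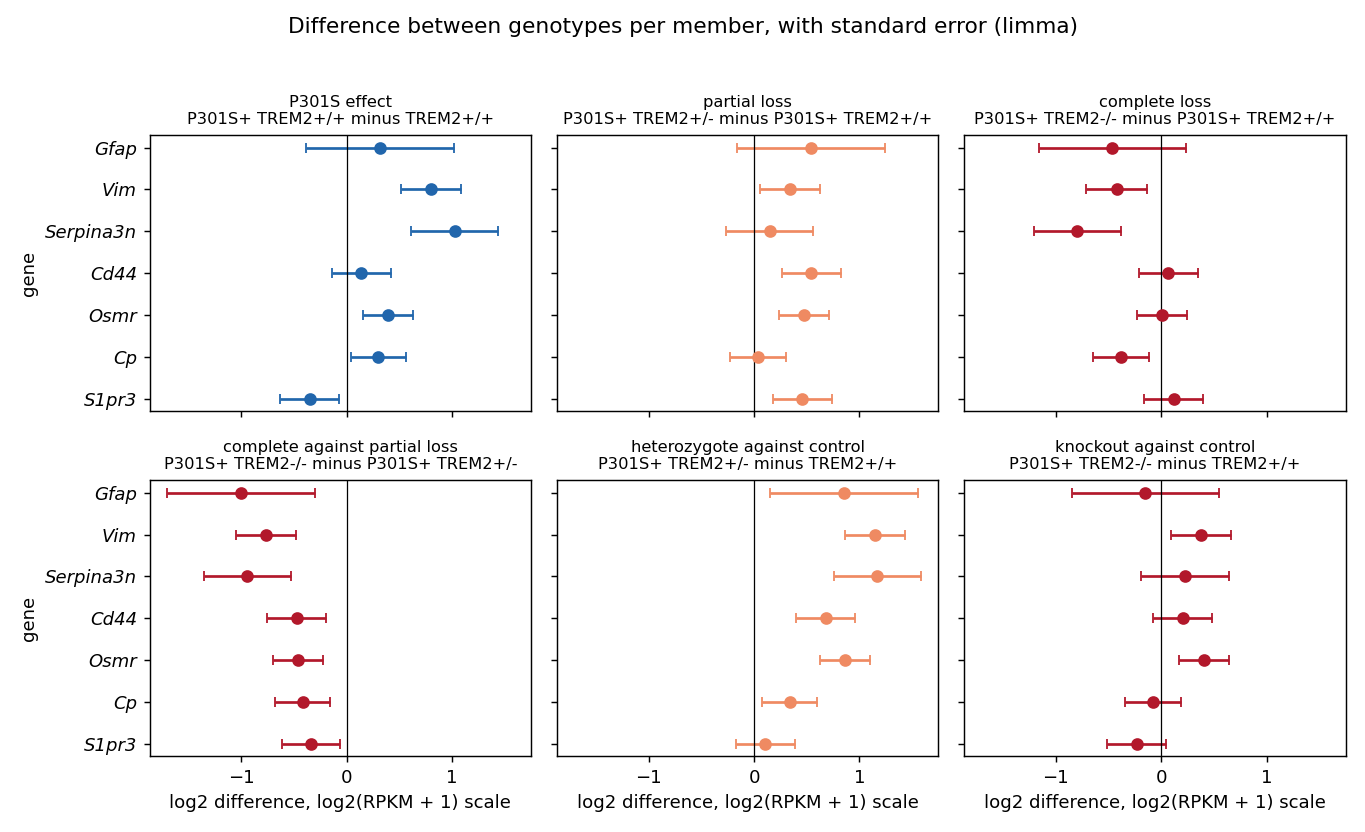
Log2 difference of the 7 tested genes on the log2(RPKM + 1) scale (horizontal axes) in the 6 comparisons between genotypes, with points for the limma estimate and bars for 1 standard error. The heterozygote against control panel holds the differences farthest above 0, up to 1.17 for Serpina3n, and Gfap has the widest bars, 0.70 on each side.

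The 2 females and 2 males of each genotype allowed the difference between the sexes to be asked, with a genotype by sex term and 8 residual degrees of freedom. For partial loss the males and females pointed in opposite directions in 5 of the 7 genes. Serpina3n differed by -1.0 in females and 1.30 in males, a gap between the sexes of -2.30 (limma adjusted p = 0.623). The same order held for Gfap, with -0.81 in females and 1.89 in males (gap -2.71, adjusted p = 0.685), for Osmr, with -0.15 and 1.09 (gap -1.24, adjusted p = 0.644), for Vim, with -0.19 and 0.88 (gap -1.07, adjusted p = 0.759), and for Cp, with -0.27 and 0.34. None of the 7 passed the threshold, as did 0% of all genes, and 4 of the 7 had an unadjusted p under 0.05, against 6.48% of all genes. Each male value rests on heterozygote replicates 3 and 4 against P301S+ TREM2+/+ replicates 3 and 4, so a difference of the sexes and of these single mice cannot be told apart.

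For complete loss the sexes differed by -2.32 in Gfap (-1.62 in females and 0.70 in males) and by -0.89 in Osmr (-0.43 in females and 0.46 in males), both with an adjusted p of 0.642. These 2 of the 7 had an unadjusted p under 0.05, against 7.24% of all genes, and 0 passed the threshold, as did 0% of all genes. Knockouts against heterozygotes gave gaps of 1.39 in Vim (-0.07 in females and -1.47 in males) and 1.24 in Cp (0.20 in females and -1.04 in males), each with an adjusted p of 1, and 2 of the 7 members had an unadjusted p under 0.05, against 2% of all genes. For the tau transgene 0 of the 7 members had an unadjusted p under 0.05, against 13.5% of all genes, and 0 passed the threshold, against 0.00832%.

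Seen by mouse rather than by genotype, heterozygote replicate 3, a male, was the highest of the 16 for 5 of the 7 members and among the highest 3 for all 7. Over all genes tested it was the highest for 6.77% and among the highest 3 for 21.7%. Its members lay 0.86 to 2.31 above the median of the 16 mice on the log2 scale, with a median of 1.24. Heterozygote replicate 4, the other male, was among the highest 3 for 5 of the 7, against 25.4% of all genes, with a median of 1.0 above the mice's median. Knockout replicate 4, also a male, was among the highest 3 for 3 of the 7 (Gfap, Osmr and S1pr3), against 12% of all genes, while its Vim of 17.4 RPKM was near the middle. At the other end, heterozygote replicate 1, a female, was the lowest for Serpina3n and Cp, 2 of the 7, against 5.17% of all genes. Its members had a median of -0.33 relative to the mice's median.

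The 3 males that stood high in several members were also high in microglial genes. The summed level of 12 microglial markers was 1630 RPKM in heterozygote replicate 3, the highest of the 16, 1003 RPKM in heterozygote replicate 4 and 904 RPKM in knockout replicate 4, the highest of the knockouts, against 370 RPKM in heterozygote replicate 1, the lowest of all. The ranges were 417 to 904 RPKM in knockouts, 370 to 1630 RPKM in heterozygotes, 603 to 942 RPKM in P301S+ TREM2+/+ mice and 410 to 1288 RPKM in controls. As a median on the log2 scale, the microglial markers lay 0.94, 0.49 and 0.50 above the mice's median in heterozygote replicates 3 and 4 and knockout replicate 4. Resting astrocyte genes were above it in the same 3 mice, with medians of 0.31, 0.28 and 0.21. Their summed levels, 3894, 3871 and 3720 RPKM, were among the highest 4 of the 16. P301S+ TREM2+/+ replicate 1 had 942 RPKM of microglial markers (median 0.56) and the highest sum of resting astrocyte genes (4043 RPKM, median 0.39), with the members at a median of 0.17. Control replicate 3 had 1288 RPKM of microglial markers, the highest of the controls, but their median was -0.03, and its members had a median of -0.95. The 6 meningeal fibroblast markers tested stood 0.48 and 0.93 above the mice's median in heterozygote replicates 3 and 4, and heterozygote replicate 4 had the lowest excitatory neuron markers of all, with a median of -1.03. Meningeal fibroblast markers, 8 in all, summed to 22.8 to 64.6 RPKM in knockouts, 43.3 to 81.9 RPKM in heterozygotes, 31.9 to 76.7 RPKM in P301S+ TREM2+/+ mice and 23.2 to 75.1 RPKM in controls. The part of microglial, resting astrocyte and meningeal RNA in the members' levels was not tested.

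**Figure D3:**
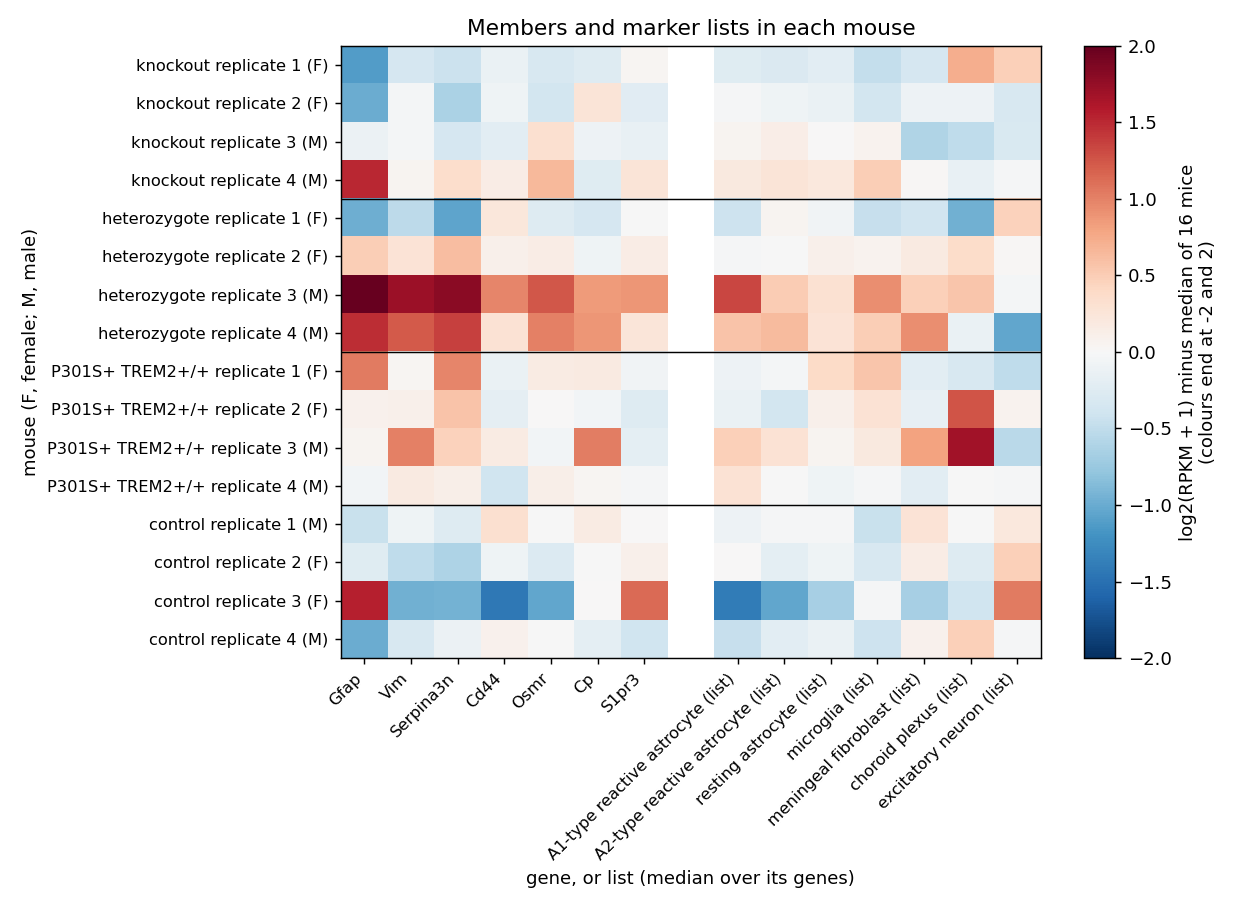
Level of the 7 tested genes and the median of 7 marker lists in each mouse, as log2(RPKM + 1) minus the median of the 16 mice, with red above and blue below it and colours that end at -2 and 2. The rows of heterozygote replicates 3 and 4 are red across the members, and control replicate 3 is red for Gfap and S1pr3 and blue for Vim, Serpina3n, Cd44 and Osmr.

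Members varied together from mouse to mouse, as far as 16 mice of 4 genotypes can show. Of the 21 pairs of members, 20 had a positive Pearson r on the log2 scale, and 10 had a permutation p under 0.05 after adjustment over the pairs (3 by Spearman's rho). The share among pairs of all genes tested was not computed. Whether the members vary together more than other genes do was therefore not tested, here or with mice left out. Vim and Serpina3n had r = 0.870 (permutation p = 2e-05, adjusted 0.00042) and rho = 0.885 (permutation p = 3e-05, adjusted 0.00063) over 16 mice. Without the 2 mice farthest from the median of Vim the r was 0.722, and on deviations from the genotype means it was 0.802. Serpina3n and Osmr had r = 0.836 (permutation p = 7e-05, adjusted 0.0007) and rho = 0.806 (permutation p = 0.00016, adjusted 0.00168), and 0.656 without the farthest 2 mice. Vim and Osmr had r = 0.825 (permutation p = 0.0001, adjusted 0.0007) and rho = 0.750 (permutation p = 0.00117, adjusted 0.00819), and 0.583 without the farthest 2.

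Gfap followed Osmr and Vim more closely once control replicate 3 was left out. Over all 16 mice Gfap and Osmr had r = 0.534 (permutation p = 0.0332, adjusted 0.0634) and rho = 0.582 (permutation p = 0.02, adjusted 0.0699). Without that mouse the r was 0.905 (permutation p adjusted over the pairs 0.00021). Gfap and Vim had r = 0.510 (permutation p = 0.0412, adjusted 0.0722) and rho = 0.524 (adjusted 0.105) with it and r = 0.754 without it. Gfap and Serpina3n had r = 0.666 (permutation p = 0.00522, adjusted 0.0137) and rho = 0.609 (adjusted 0.0692) with it and r = 0.881 without it. In control replicate 3 Gfap was at 32.4 RPKM while Osmr was at 0.0395 RPKM and Serpina3n at 1.47 RPKM, a combination no other mouse had. Without this mouse all 21 pairs were positive and 15 had an adjusted permutation p under 0.05. On deviations from the genotype means there were 8 such pairs. Gfap and S1pr3, both high in that mouse, had r = 0.734 (permutation p = 0.0006, adjusted 0.00252) and rho = 0.594 (adjusted 0.0692) with it and r = 0.740 without it. The weakest pairs over the 16 mice were Gfap with Cd44 (r = 0.07, rho = 0.10), Osmr with S1pr3 (r = 0.07, rho = 0.21) and Cd44 with S1pr3 (r = -0.19, rho = 0.22).

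**Figure D4:**
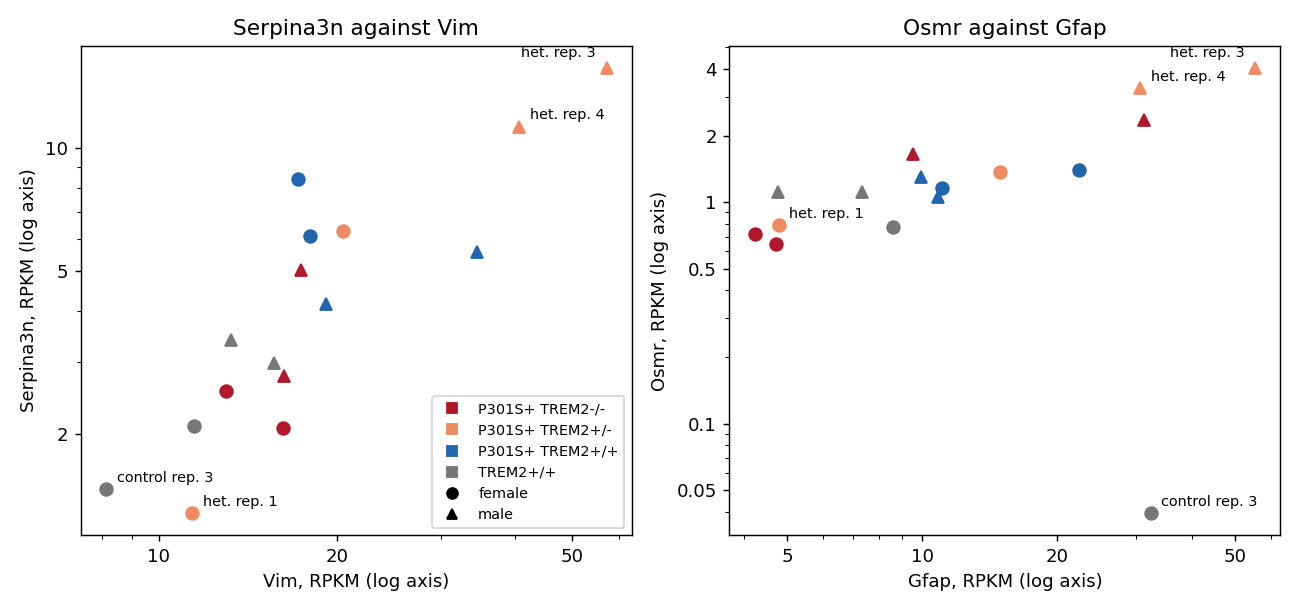
RPKM of Serpina3n against Vim and of Osmr against Gfap in the 16 mice on log axes, with colours for genotype, circles for females and triangles for males. Heterozygote replicates 3 and 4 are at the upper right of both panels, and control replicate 3 lies far below the other mice in the panel of Osmr against Gfap, at 0.0395 RPKM of Osmr.

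Among all 12015 genes tested, those whose pattern over the 16 mice was most like Gfap were Fcgr3, an IgG receptor of microglia and macrophages (r = 0.944), Prdx6, a peroxiredoxin abundant in astrocytes (r = 0.932), and Clu, the secreted chaperone clusterin (r = 0.930). Fcgr3 ranged over 4.30 to 18.8 RPKM, with 18.8 RPKM in heterozygote replicate 3 and 11.3 RPKM in control replicate 3, a mouse in which Gfap and S1pr3 were high and Vim, Serpina3n, Cd44 and Osmr low. Its r with Gfap was 0.954 without that mouse. For Vim they were Rin2, a regulator of Rab5 (r = 0.918), Tmem86a (r = 0.915) and Serping1, the inhibitor of complement C1 (r = 0.904). For Serpina3n they were Clec7a, the beta-glucan receptor dectin-1 of activated microglia (r = 0.936), Cxcl5, a neutrophil-attracting chemokine (r = 0.927), and Cd68, a lysosomal protein of phagocytes (r = 0.923). Clec7a had 10.5 and 7.39 RPKM in heterozygote replicates 3 and 4, against 0.0419 RPKM in replicate 1. These coefficients are the highest of 12015 and carry no test, and the 16 points share libraries and genotypes. Without control replicate 3 the ranks of these genes, in the order named, were 1, 3 and 10 for Gfap. They were 4, 6 and 18 for Vim and 2, 7 and 8 for Serpina3n.

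Genes of related programs were read from lists that do not include the 9 members. Of 4 further pan-reactive genes, Hspb1, a small heat shock protein, and Cxcl10, an interferon-induced chemokine, were above the level needed for testing. Hspb1 averaged 9.72 ± 6.34 RPKM in P301S+ TREM2+/+ mice and 3.28 ± 2.77 RPKM in controls (SD, n = 4 each), and the log2 difference was 1.42 (SE 0.54, adjusted p = 0.294 from limma). Control replicate 3 had 0 RPKM of Hspb1, and without it the difference was 0.87 (SE 0.45). Cxcl10 averaged 6.37 ± 8.77 RPKM in heterozygotes and 1.81 ± 1.16 RPKM in P301S+ TREM2+/+ mice (SD, n = 4 each), a difference of 0.75 (SE 0.55), with 19.3 RPKM in heterozygote replicate 3, without which the difference was 0.17.

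Of 12 genes of the A1 type, a set tied to microglial cytokines, 9 were tested and 0 passed limma's threshold in any of the 6 comparisons, while 0 to 6 of them had an unadjusted p under 0.05, against 2.7 to 13.8% of all genes. Between P301S+ TREM2+/+ mice and controls 8 of the 9 were positive, against 57.1% of all genes, with a median of 0.78, against 0.06 for all genes, and 4 of the 9 had an unadjusted p under 0.05, against 13.8%. The median was 0.41 without control replicate 3, and 2 of the 9 then had such a p, against 21.2% of all genes. Between heterozygotes and controls there were 6 of the 9, against 9.6% of all genes, and without control replicate 3 there were 3, against 8.72%. Amigo2 was below 0 in each comparison with controls, at -0.61 for the transgene, -0.69 in heterozygotes and -0.89 in knockouts (SE 0.53 each). Without control replicate 3 its differences were 0.14, 0.06 and -0.14. Psmb8, a subunit of the immunoproteasome, averaged 10.5 ± 2.70 RPKM in P301S+ TREM2+/+ mice and 3.27 ± 1.76 RPKM in controls (SD, n = 4 each; log2 difference 1.53, SE 0.34, adjusted p = 0.265), and without control replicate 3, at 0.781 RPKM, the difference was 1.24. In knockouts it averaged 4.89 ± 1.27 RPKM (SD, n = 4; log2 difference from P301S+ TREM2+/+ mice -0.96, SE 0.34, adjusted p = 0.426). H2-D1, a class I histocompatibility gene with near-identical copies and so uncertain in level, averaged 75.1 ± 54.8 RPKM in heterozygotes and 25.3 ± 15.02 RPKM in controls (SD, n = 4 each; log2 difference 1.67, SE 0.49, adjusted p = 0.494). Control replicate 3 had 3.30 RPKM of H2-D1, against 28.4 to 36.5 RPKM in the other controls, and without it the difference was 1.06 (SE 0.34, adjusted p = 0.407). The A1 median was 0.06 for partial loss, -0.28 for complete loss, -0.21 for knockouts against heterozygotes (0 of 9 positive), 0.79 for heterozygotes against controls and 0.47 for knockouts against controls, the last being 0.27 without control replicate 3. Leaving out single libraries gave medians of 0.03 to 0.28 for partial loss, -0.41 to -0.10 for complete loss, -0.41 to -0.14 for knockouts against heterozygotes and 0.47 to 1.11 for heterozygotes against controls.

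Of 12 A2-type genes, a set first described after ischaemia, 4 were tested and 0 passed limma's threshold in any comparison, while 1 to 3 of them had an unadjusted p under 0.05, against 2.7 to 13.8% of all genes. The 3 of 4 were found between heterozygotes and controls, against 9.6%, and were 2 without control replicate 3, against 8.72%. Cd14, the co-receptor for lipopolysaccharide, averaged 1.88 ± 0.495 RPKM in heterozygotes and 0.525 ± 0.317 RPKM in controls (SD, n = 4 each; log2 difference 0.93, SE 0.15, limma adjusted p = 0.175). The A2 medians were 0.41 for the transgene, 0.27 for partial loss, 0.05 for complete loss, -0.24 for knockouts against heterozygotes, 0.61 for heterozygotes against controls and 0.50 for knockouts against controls. They were, without control replicate 3, 0.16 for the transgene, 0.43 for heterozygotes against controls and 0.25 for knockouts against controls. The complete-loss median was -0.03 without P301S+ TREM2+/+ replicate 2 and 0.15 without P301S+ TREM2+/+ replicate 1, and the partial-loss median was 0.16 without heterozygote replicate 4.

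Signalling from the interleukin-6 family was represented by 15 ligands, receptors and kinases, of which 8 were tested and 0 passed limma's threshold, while 0 to 1 had an unadjusted p under 0.05 in a comparison, against 2.7 to 13.8% of all genes. Without control replicate 3 that count was 0 to 3, with 3 of the 8 for the transgene, against 21.2% of all genes. It was then 2 for heterozygotes against controls, against 8.72%, and 2 for knockouts against heterozygotes, against 7.77%. The ligands Il6, Lif, Cntf, Osm and Clcf1 were all below the level needed for testing. Stat3 averaged 28.4 ± 3.85 RPKM in P301S+ TREM2+/+ mice and 17.5 ± 8.59 RPKM in controls (SD, n = 4 each; log2 difference 0.85, SE 0.31, limma adjusted p = 0.289). Control replicate 3 had 4.94 RPKM of Stat3, against 19.8 to 24.5 RPKM in the other controls, and without it the difference was 0.41 (SE 0.15, adjusted p = 0.16). Jak2, a kinase bound to gp130, differed by 0.27 (SE 0.14), the receptor subunit Lifr by -0.31 (SE 0.16) and the kinase Tyk2 by -0.32 (SE 0.17), and the median of the 8 was 0.00, or 0.09 without control replicate 3. Without that mouse Jak2 was at 0.30, Lifr at -0.22 and Tyk2 at -0.22. For partial and complete loss the medians were 0.07 and 0.01, with 6 of 8 positive in each, against 52.5% and 46.8% of all genes, and for knockouts against heterozygotes the median was -0.05.

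All 15 resting astrocyte genes were tested, and 0 passed limma's threshold in any comparison, while 1 to 7 had an unadjusted p under 0.05, against 2.7 to 13.8% of all genes. Aldh1l1, a folate enzyme used to mark astrocytes, averaged 6.45 ± 0.304 RPKM in knockouts and 9.27 ± 1.38 RPKM in P301S+ TREM2+/+ animals (SD, n = 4 each; log2 difference -0.45, SE 0.14, limma adjusted p = 0.426). Gja1, the gap junction protein connexin 43, averaged 48.5 ± 8.35 RPKM in knockouts and 31.9 ± 24.4 RPKM in P301S+ TREM2+/+ animals (SD, n = 4 each; log2 difference 0.95, SE 0.36, adjusted p = 0.427). For complete loss 5 of the 15 were positive, against 46.8% of all genes, with a median of -0.15, which was 0.05 without P301S+ TREM2+/+ replicate 1. For the transgene 10 were positive, against 57.1% of all genes, with a median of 0.17, led by Acsbg1, a fatty acid ligase (1.16, SE 0.43), and the glutamate transporter Slc1a2 (0.67, SE 0.21, adjusted p = 0.269). The other 5 were negative, the lowest being Gja1 (-0.66, SE 0.36) and Ndrg2 (-0.20, SE 0.28). Without control replicate 3, 12 of the 15 were positive, against 52.2% of all genes, with a median of 0.20. Acsbg1 had 4.96 RPKM in control replicate 3, against 26.8 to 37.4 RPKM in the other controls, and without that mouse its difference was 0.55 (SE 0.21) and that of Slc1a2 0.51. For partial loss 11 were positive, against 52.5% of all genes, with a median of 0.06, which was 0.21 without heterozygote replicate 1 and 0.02 without P301S+ TREM2+/+ replicate 4.

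Between heterozygotes and controls most resting astrocyte genes, like the members, had positive differences. Of the 15, 11 were positive, against 59.9% of all genes, with a median of 0.46, against 0.08 for all genes, and 7 had an unadjusted p under 0.05, against 9.6%. Without control replicate 3, 14 of the 15 were positive, against 54.9% of all genes, the median was 0.31, and 4 had such a p, against 8.72%. Between knockouts and heterozygotes 1 of the 15 was positive, against 44.5% of all genes, with a median of -0.21, against -0.03 for all genes, and 1 had an unadjusted p under 0.05, against 3.42%. Between knockouts and controls 9 were positive, against 58.1%, with a median of 0.21, which was 0.12 without control replicate 3. Without that mouse 12 were positive, against 52.8% of all genes. The medians of the 7 members in these 3 comparisons were 0.86, -0.48 and 0.20, and the part of the resting astrocyte genes' level in them was not tested.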

How the data were processed

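The labels describe RNeasy extraction, Lexogen QuantSeq 3' mRNA libraries and HiSeq4000 sequencing. STAR, HTSeq, edgeR, limma and mm10 are named, per the submitters' processing notes, without versions or order. The deposited values are RPKM, made by the authors, as read from the numbers, since the column headers give no unit: each gene moved in steps worth 1 read. Dividing by that step gave whole reads in 100% of genes with any signal (tolerance 1e-05 reads, or 3e-07 relative), and 2.55 to 14.47 M per library (M stands for 1e+06 reads). Each 3' transcript end gives 1 read stretch, so division by gene length distorts levels between genes, and genes were compared between mice only. Strand use in counting is not stated. Libraries of 1 genotype differed by a chi-square per gene of at least 6.87, so each library was counted as 1 mouse. PCR reads carry no molecular identifiers, so read numbers bound counting error only. A blank line in each file, 1 per library, was dropped.

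Differences were tested with limma 3.58.1 (R 4.3.3, with trend) on log2(RPKM + 1). The 12015 genes entered that averaged 1 RPKM or more, and the model held 4 genotypes and sex over the 16 libraries (11 residual degrees of freedom). This scale understates changes of low genes. P-values were adjusted by Benjamini-Hochberg across these genes (threshold 0.05) and measure only the spread between these mice. The procedure was also run on simulated data with the same setting of spread for every gene and no outlying mouse. That run does not show how the tests behave with a mouse such as control replicate 3. Correlations used 100000 permutations, two-sided, and Benjamini-Hochberg over the 21 pairs. The members, gene lists and tests were chosen with earlier results of these data known. All 9 members are named in every comparison where they were tested. From the other lists a rule took the genes past the threshold and otherwise the 2 highest and 2 lowest differences, and some of these are printed. For Gfap, Vim and Serpina3n it took the 3 genes with the highest r. Marker lists of other cells are given as sums. The values of Stat3, Cxcl10, Fcgr3, Clec7a, Hspb1, Psmb8, H2-D1 and Acsbg1 in single mice were picked after they were seen. Coordinates are from GENCODE vM21 (GRCm38, which is mm10) and promoters from RefSeq on GRCm38.p6. Alternatives covered the pseudocount, the filter, the sex term, 2-genotype fits, array weights, rescaling, limma-voom on reads and leaving out libraries, and for the other lists the last was added after the data were seen.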

Additional observations from a re-analysis of the deposited data

Results flagged for a closer look

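Within genotypes of 4 mice, 1 mouse stood far from the other 3 in 6 of 34 sets of values in RPKM, by a gap to the nearest mouse that exceeded the 95% critical value of Dixon's ratio of gap to range. Chance marks about 1 in 20 sets of independent, normally distributed values. The sets here share mice and were not tested for normality, so that rate may not apply to them. On the log2(RPKM + 1) scale 3 sets were marked. These were Gfap in P301S+ TREM2+/+ replicate 1, Vim in P301S+ TREM2+/+ replicate 3 and Lcn2 in control replicate 1.

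Gfap was at 22.43 RPKM in P301S+ TREM2+/+ replicate 1, against 9.96 to 11.1 RPKM in the other 3, and at 32.38 RPKM in control replicate 3, against 4.75 to 8.60 RPKM in the other controls. Vim was at 34.58 RPKM and Cp at 4.118 RPKM in P301S+ TREM2+/+ replicate 3, the mouse with the highest summed choroid plexus (2011 RPKM), endothelial (92.0 RPKM) and mural cell markers (49.2 RPKM) and the second highest meningeal fibroblast markers (76.7 RPKM). The part of these tissues was not tested. Lcn2 was at 2.372 RPKM (15 reads) in control replicate 1, which also had the highest summed level of the 7 neutrophil and blood markers (13.9 RPKM). In that mouse S100a9 was at 7.47 RPKM (29 reads) and S100a8 at 5.51 RPKM (16 reads). Alas2 had 1 read there, and 3 of the 7 genes were at 0 in every mouse. Cd44 was at 5.018 RPKM in heterozygote replicate 3, the mouse with the highest microglial markers (1630 RPKM summed).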

How the results depend on the processing

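No paired analysis was possible because the labels carry no replicate number shared between genotypes. No member passed the threshold in any of the 6 comparisons when each library was left out in turn (0 to 0), nor under any other setting but array weights, which gave 1 for heterozygotes against controls (Vim). With a mean RPKM of at least 5, which leaves 3 members, the median difference was 0.80 for the transgene and -0.945 for knockouts against heterozygotes. Without control replicate 3 and both P301S+ TREM2+/+ females, the complete-loss median was 0.172, and Gfap stood at 0.49 for complete loss and 0.602 for knockouts against controls, Cd44 at -0.32 and Osmr at -0.144 for the transgene, Cp at -0.0249 for partial loss, and Cd44 at -0.134 and S1pr3 at 0.103 for knockouts against controls. Array weights turned Cd44 to -0.152 (transgene), Cp to -0.0238 (partial loss), Osmr to -0.0506 (complete loss) and, for knockouts against controls, Gfap to 0.334, Cd44 to -0.143 and S1pr3 to 0.0693. A pseudocount of 0.1 put Osmr at -0.0531 for complete loss. The cause was not tested.

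Leaving out 1 library, differences that turned ranged over -0.122 to 0.979 (Gfap) and -0.21 to 0.303 (Cd44) for the transgene, -0.151 to 0.67 (Serpina3n) and -0.119 to 0.241 (Cp) for partial loss, -0.0993 to 0.186 (Cd44) and -0.148 to 0.167 (Osmr) for complete loss, -0.112 to 0.437 (S1pr3) for heterozygotes against controls, and -0.674 to 0.515 (Gfap), -0.145 to 0.351 (Cd44), -0.265 to 0.0379 (Cp) and -0.451 to 0.0981 (S1pr3) for knockouts against controls. The other 651 of these values kept their sign and 21 turned. Correlated pairs numbered 15 without control replicate 3, and marked sets of 4 mice 3 on the log2 scale. Reads of Lcn2 and Timp1, at most 17 and 8 per library, limit what can be said of them.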
